A study of Homo sapiens with 13 samples.

Results

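The genes carried by the mitochondrial genome were examined in human osteoblasts kept with serum, without serum, or without serum but with a plant polyphenol. Members were the rows of the raw count table whose Ensembl identifier maps to a symbol beginning with MT-. Of the 37 such genes in the annotation, 13 had a row, out of 43836 genes in the table, and these were the 13 protein-coding genes. The 2 ribosomal RNA genes and the 22 transfer RNA genes were not analysed here. None of the 13 was removed as too low, and the lowest count of any member in any library was 1867 reads, for MT-ND6.

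The cells were hFOB 1.19, a human fetal osteoblast line that is immortalised with a temperature-sensitive SV40 large T antigen, so that every group shared this background and the results describe 1 line. Poly(A)-selected RNA was sequenced from 5 groups. The positive control (PC, 2 libraries) received 10% fetal bovine serum (FBS) and vehicle, and the negative control (NC, 2 libraries) received vehicle without FBS. The other groups were kept without FBS and received 1 mcg/ml of resveratrol (RES, 3 libraries), of peonidin-3-glucoside (POG, 3 libraries) or of the agent that the labels call DEG (2 libraries analysed). The labels name delphinidin-3-glucoside among the agents but do not spell out that abbreviation. Nothing in the labels says that libraries of a group came from separate cultures, so the p-values below measure the spread between these libraries, which may be technical.

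Mitochondrial DNA is a small circular genome present in many copies in each cell. It is transcribed from both strands into long precursors by a dedicated polymerase, POLRMT, with the factors TFAM and TFB2M, and most messengers are released by excision of the transfer RNAs that lie between them. The proteins it encodes are subunits of the respiratory chain and ATP synthase, which work together with subunits encoded in the nucleus: the MT-ND genes belong to complex I, MT-CYB to complex III, the MT-CO genes to complex IV and the MT-ATP genes to complex V. Most mitochondrial messengers carry short poly(A) tails, which in some of them supply the missing letters of the stop codon.

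The last 21 bases of each gene, read from hg38 and written 5′ to 3′ on the gene's own strand, are given here. They show how the coding part of each gene ends, which need not be where its messenger ends. The library method selected RNA by its poly(A) tail. Capitals mark the stop codon or the part of it that the DNA holds, and coordinates are 1-based.
MT-ND1 (complex I, plus strand, chrM:4242-4262): cagcattccccctcaaaccTA
MT-ND2 (complex I, plus strand, chrM:5491-5511): cttttatactaataatcttaT
MT-CO1 (complex IV, plus strand, chrM:7425-7445): cccgtatacataaaatctAGA
MT-CO2 (complex IV, plus strand, chrM:8249-8269): gggcccgtatttaccctaTAG
MT-ATP8 (complex V, plus strand, chrM:8552-8572): tcattgcccccacaatccTAG
MT-ATP6 (complex V, plus strand, chrM:9187-9207): tacctgcacgacaacacaTAA
MT-CO3 (complex IV, plus strand, chrM:9970-9990): ccatctattgatgagggtctT
MT-ND3 (complex I, plus strand, chrM:10384-10404): aaggattagactgaaccgaaT
MT-ND4L (complex I, plus strand, chrM:10746-10766): ctaaacctactccaatgcTAA
MT-ND4 (complex I, plus strand, chrM:12117-12137): tcattaccgggttttcctctT
MT-ND5 (complex I, plus strand, chrM:14128-14148): accctactcctaatcacaTAA
MT-ND6 (complex I, minus strand, chrM:14149-14169): gagattgctcgggggaatAGG
MT-CYB (complex III, plus strand, chrM:15867-15887): acaaaatactcaaatgggccT
The DNA held a complete stop codon in 7 genes and a part of one in 6, of which 5 ended in a single T and 1, MT-ND1, in TA. MT-ND6 was the single member encoded on the minus strand. It lies end to end with MT-ND5, so the end of MT-ND5 and the end of MT-ND6 on the opposite strand meet in the following window, in which the capitals mark the stop codon of MT-ND5 followed by the complement of that of MT-ND6.
MT-ND5 and MT-ND6 junction (plus strand, chrM:14134-14163): ctcctaatcacaTAACCTattcccccgagc
Whether the counting used strand is not given in the sources used here. If it did not, RNA copied from the other strand across MT-ND6 cannot be told apart from MT-ND6 itself.

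Neighbouring members also share bases. MT-ATP8 and MT-ATP6 overlap by 46 bases and MT-ND4L and MT-ND4 by 7, and each pair is known to be carried on 1 joint messenger. MT-ATP6 and MT-CO3 share 1 base, at chrM:9207, the last of the MT-ATP6 stop codon and the first of MT-CO3. The longer overlaps are shown in capitals within their flanks, because reads across them belong to both genes.
MT-ATP8 and MT-ATP6 (plus strand, chrM:8515-8584): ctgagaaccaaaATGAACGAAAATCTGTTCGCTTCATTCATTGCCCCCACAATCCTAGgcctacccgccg
MT-ND4L and MT-ND4 (plus strand, chrM:10748-10778): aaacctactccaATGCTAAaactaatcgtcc
The reads per base of MT-ATP8 were 52.45% to 58.05% of those of MT-ATP6 over the 12 libraries, and those of MT-ND4L were 45.03% to 50.83% of those of MT-ND4. The genes MT-ATP8, of 207 bases, MT-ND4L, of 297 bases, and MT-ND3, of 346 bases, are short, so a reading of them per base depends strongly on how fragments that cross a gene's end were counted, which was not tested.

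Copies of these genes lie in the nuclear genome and can share reads with them. The 404 annotated copies held between 1.23% and 1.39% of the reads of the 13 genes in a library. Most of these belonged to MTATP6P1, which held 187043 reads over all libraries, or 16.5% of the count of MT-ATP6. MTATP6P1 lies on chromosome 1 of hg38 at chr1:633696-634376 and differs from MT-ATP6 at 10 of 681 bases. A stretch of 60 bases of both, with 3 of the differences in capitals, show how few letters assign a read to one or the other.
MT-ATP6 (plus strand, chrM:8642-8701): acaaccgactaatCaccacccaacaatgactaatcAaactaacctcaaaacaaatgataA
MTATP6P1 (plus strand, chr1:633811-633870): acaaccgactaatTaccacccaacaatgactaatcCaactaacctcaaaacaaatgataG
For the other members the copies held at most 1.10% of the parent's reads, the value for MT-ND2. Of all windows of 100 bases, 27.9% in MT-CO1, 26.1% in MT-ND2, 11.9% in MT-ATP6 and 11% in MT-ND1 had an exact match in the transcript of a copy listed in the table, whereas MT-ND3, MT-ND4L, MT-ND4, MT-ND5, MT-ND6, MT-CYB and MT-ATP8 had none. How reads with several matches were treated is not given in the sources used here.

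The libraries held 38464619 to 51416358 counted reads. The 2 PC libraries differed from each other more than replicates of the other groups did, with a mean chi-square per gene of 11 against 2.07 to 2.66, so results with PC are also given without each of them where this changed them. The osteoblast genes COL1A1, at 2480 to 2830 CPM (counts scaled to a common library total, here after TMM correction of the totals), and SPARC, at 1030 to 1130 CPM, were high and the osteoblast regulator RUNX2 stood at 44.4 to 51.8 CPM, but SP7 and the matrix gene IBSP, markers of later osteoblasts, were at or near 0. Of the other osteoblast markers read, COL1A2 stood at 1120 to 1370 CPM, ALPL at 3.25 to 6.45 and BGLAP at 0.43 to 2.02. The 8 osteoblast markers summed to 5280 to 5310 CPM in PC and 5230 to 5280 in NC. Their sum was 4970 to 5090 CPM in RES, 4800 to 4840 in POG and 4790 to 4800 in DEG. The blood markers PTPRC and HBB and the endothelial marker CDH5 stayed below 0.2 CPM in every library. The muscle markers MYOD1 and DES reached at most 0.362 and 1.2 CPM. The other endothelial marker, PECAM1, stood at 1.09 to 2.50 CPM, and the sum of both endothelial markers was 1.52 to 1.54 CPM in PC, 2.23 to 2.32 in NC, 1.84 to 2.59 in RES, 1.09 to 1.39 in POG and 1.28 to 1.53 in DEG. Of the 3 epithelial markers, EPCAM and CDH1 were below 1 CPM, whereas KRT8, which many cultured cells express, reached 183 to 274 CPM. The summed level of these 3 genes was 253 to 275 CPM in PC and 212 to 215 in NC. It was 243 to 247 CPM in RES, 183 to 190 in POG and 195 to 197 in DEG. The part of this, of the endothelial sum or of the osteoblast sum in the differences described below was not tested.

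The 13 mitochondrial messengers together took 3.03% to 3.92% of the counted reads, highest with serum and lowest in the DEG group. The share was 3.92% and 3.64% in the PC libraries and 3.41% and 3.26% in the NC libraries. It was 3.36%, 3.40% and 3.24% in the RES libraries and 3.30%, 3.26% and 3.31% in the POG libraries. In the DEG libraries it was 3.11% and 3.03%. Every PC library lay above, and every DEG library below, all libraries of the other groups, while the NC, RES and POG libraries overlapped. The group means were 3.78% ± 0.193 (SD, n = 2) for PC, 3.34% ± 0.106 (n = 2) for NC, 3.34% ± 0.0832 (n = 3) for RES, 3.29% ± 0.0291 (n = 3) for POG and 3.07% ± 0.0538 (n = 2) for DEG.

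**Figure D1:**
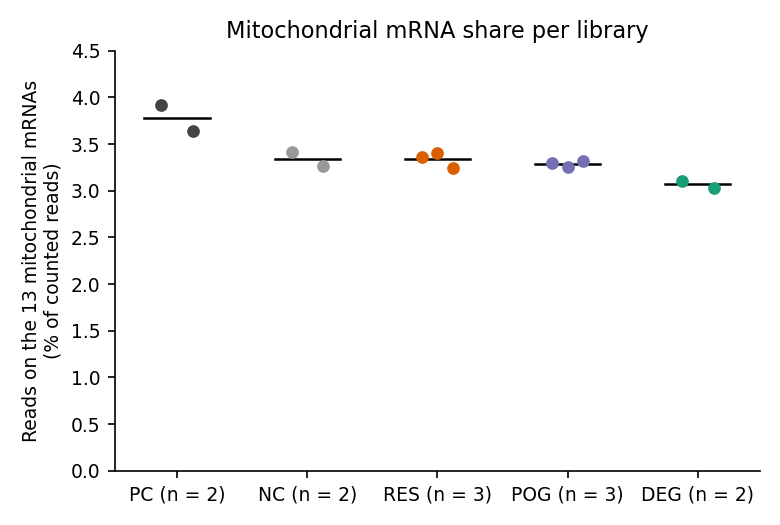
Reads on the 13 mitochondrial mRNAs as a percent of all counted reads (vertical axis) in each library of the 5 groups (horizontal axis), with a point for each library and a line at the group mean. The PC libraries, at 3.92% and 3.64%, lie above all others and the DEG libraries, at 3.11% and 3.03%, below all others.

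An exact permutation test of the spread between groups, over all 1663200 ways of assigning the 12 libraries, gave p = 0.00151 (0.00302 after Benjamini-Hochberg adjustment over the 2 tests made), with 88.9% of the variance between groups. Among the 4 serum-free groups alone, the same exact permutation test over 25200 assignments gave p = 0.0332 (adjusted 0.0332), with 77.8% of the variance between groups. The second result rested on single libraries. Without DEG replicate 2 its exact permutation p was 0.169, and it lay between 0.0563 and 0.079 without RES replicate 1 or 2, any 1 POG replicate or DEG replicate 1. It remained under 0.05 without NC replicate 1 (0.0183), NC replicate 2 (0.00913) or RES replicate 3 (0.0286). A single pair of groups of 2 or 3 libraries cannot reach a p of 0.05 in such a test. In bulk RNA, fewer mitochondrial genomes per cell and less RNA from each cannot be told apart. The share also depends on the reads of nuclear genes, which make up the rest of the total.

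Per kilobase, the members formed a steep order over the 12 libraries. MT-CO2, a catalytic subunit of cytochrome c oxidase, had the highest level, 5744 CPM per kilobase on average. MT-CO1, its other catalytic subunit, followed at 5228, and MT-ND4 stood at 5128. MT-CO3 was at 3614 and MT-ATP6, which forms part of the proton channel of ATP synthase, at 3218. The order went on with MT-ND4L (2467), MT-ND1 (2231), MT-CYB (1871), MT-ATP8 (1771), MT-ND5 (1368), MT-ND2 (1326) and MT-ND3 (1106). MT-ND6 came last at 112.9 CPM per kilobase, from 91.6 to 141.7 between libraries. How evenly the poly(A) selection recovered these messengers was not tested. Nor was the effect on this order of reads that also match nuclear copies. Windows with an exact match made up 27.9% of MT-CO1 and 26.1% of MT-ND2 but 2.39% of MT-CO2, and MT-ND5 had none.

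Of the 12 neighbouring pairs in this order, 7 kept their order in all 12 libraries. MT-CO1 was above MT-ND4, MT-ND4L above MT-ND1, MT-ND1 above MT-CYB and MT-CYB above MT-ATP8 in 10 of 12 libraries each, and MT-ND5 was above MT-ND2 in 8 of 12. For some of these pairs the order turned with the group. MT-CYB was above MT-ND1 in both PC libraries (2278 against 2120 and 2103 against 1949 CPM per kilobase) and below it in all 10 serum-free libraries. MT-ND2 was above MT-ND5 in all 3 POG libraries, by 1390 against 1374, 1394 against 1369 and 1414 against 1396 CPM per kilobase, and in DEG replicate 1. MT-ND1 was above MT-ND4L in POG replicates 1 and 3. The exceptions of the other pairs lay in NC replicate 1 and RES replicate 3 for MT-CO1 and MT-ND4, and in PC replicate 2 and DEG replicate 2 for MT-CYB and MT-ATP8, so that no group had these in a reversed order throughout. Because MT-CO1 and MT-ND4 are also long, they took 23.9% and 20.9% of all reads on the 13 genes, whereas MT-ND6 took 0.174%.

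**Figure D2:**
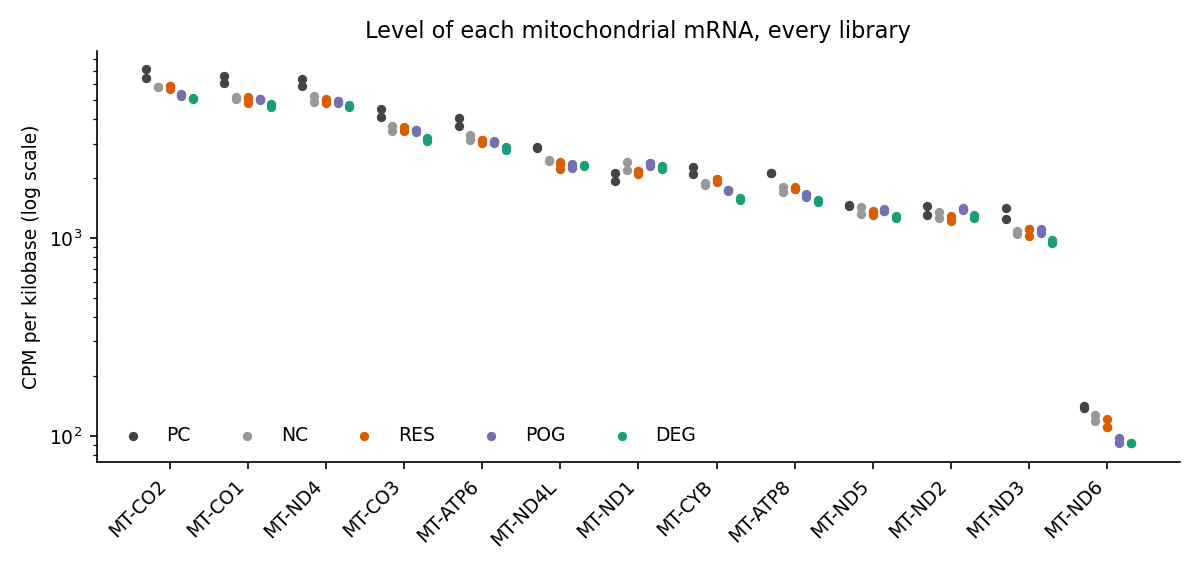
Level of each mitochondrial mRNA in TMM-scaled CPM per kilobase of gene (vertical axis, log scale) for every library, with genes ordered by their mean and points coloured by group. Most genes lie between 1106 and 5744 CPM per kilobase on average, MT-ND6 lies at 112.9, and MT-ND1 is the gene whose PC points fall below the NC points.

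The comparison of PC with NC asked how serum changes these messengers. Of the 13, 11 were higher with serum and 1, MT-ND1, was lower, at a false discovery rate (FDR) under 0.05 in the edgeR exact test. Over all 17092 genes tested, 42.4% were called, 21.4% higher and 20.9% lower. The median log2 fold change of the 13 was 0.225, beside −0.0058 over all genes tested. The libraries of the groups did not overlap for 12 of the 13 genes, as for 65.6% of all genes tested. Dispersions were shared over all 12 libraries, so standard errors and FDR values may be too small for the more variable PC pair. With dispersions from the PC and NC libraries alone, 11 members were called, 10 higher and 1 lower, beside 34.7% of all genes. Without PC replicate 1, 12 members were called, and without PC replicate 2, 13 were called, MT-ND1 alone being lower in both cases.

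All 5 messengers of complexes IV and V rose in this comparison. MT-CO1 had 10160 and 9363 CPM in PC against 7983 and 7815 in NC, a log2 fold change of 0.31 ± 0.0279 (SE; FDR 8.13e-14). MT-CO2 rose by 0.23 and MT-CO3, the remaining mitochondrial subunit of cytochrome c oxidase, by 0.25 on the log2 scale. MT-ATP8 and MT-ATP6, which share a messenger, rose by 0.28 and 0.27. In complex III, MT-CYB, the cytochrome b that carries electrons within the complex, had 2599 and 2399 CPM with serum against 2168 and 2116 without, a log2 fold change of 0.22 ± 0.0287 (FDR 3e-08).

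The 7 complex I messengers, which encode membrane subunits of the complex, did not move as a block. MT-ND3 had 490.5 and 430.9 CPM in PC against 374.2 and 362.3 in NC, a log2 fold change of 0.32 ± 0.0427 (FDR 1.73e-10), the highest of the 13. MT-ND4 rose by 0.28, MT-ND4L by 0.21 and MT-ND6 by 0.17 on the log2 scale. MT-ND2, at 1509 and 1359 CPM against 1415 and 1320, did not pass the test (log2 fold change 0.07, FDR 0.205), and its libraries overlapped.

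MT-ND5 and MT-ND1 depended on which libraries entered. MT-ND5 rose by 0.09 on the log2 scale (FDR 0.0379), with 2676 and 2643 CPM against 2599 and 2386. With dispersions from the PC and NC libraries alone MT-ND5 was not called (FDR 0.257). Its value was 0.16 without NC replicate 1, and it was not called without NC replicate 2 (0.04, FDR 0.562) or with plain library totals (0.05, FDR 0.307). The MT-ND6 call was also lost without NC replicate 2 (FDR 0.105). MT-ND1 had 2026 and 1864 CPM in PC against 2315 and 2119 in NC, a log2 fold change of −0.19 ± 0.0351 (FDR 7.25e-05). This fall remained called but was smaller, −0.12, without NC replicate 1 (FDR 0.0466) or without PC replicate 2 (FDR 0.000259).

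**Figure D3:**
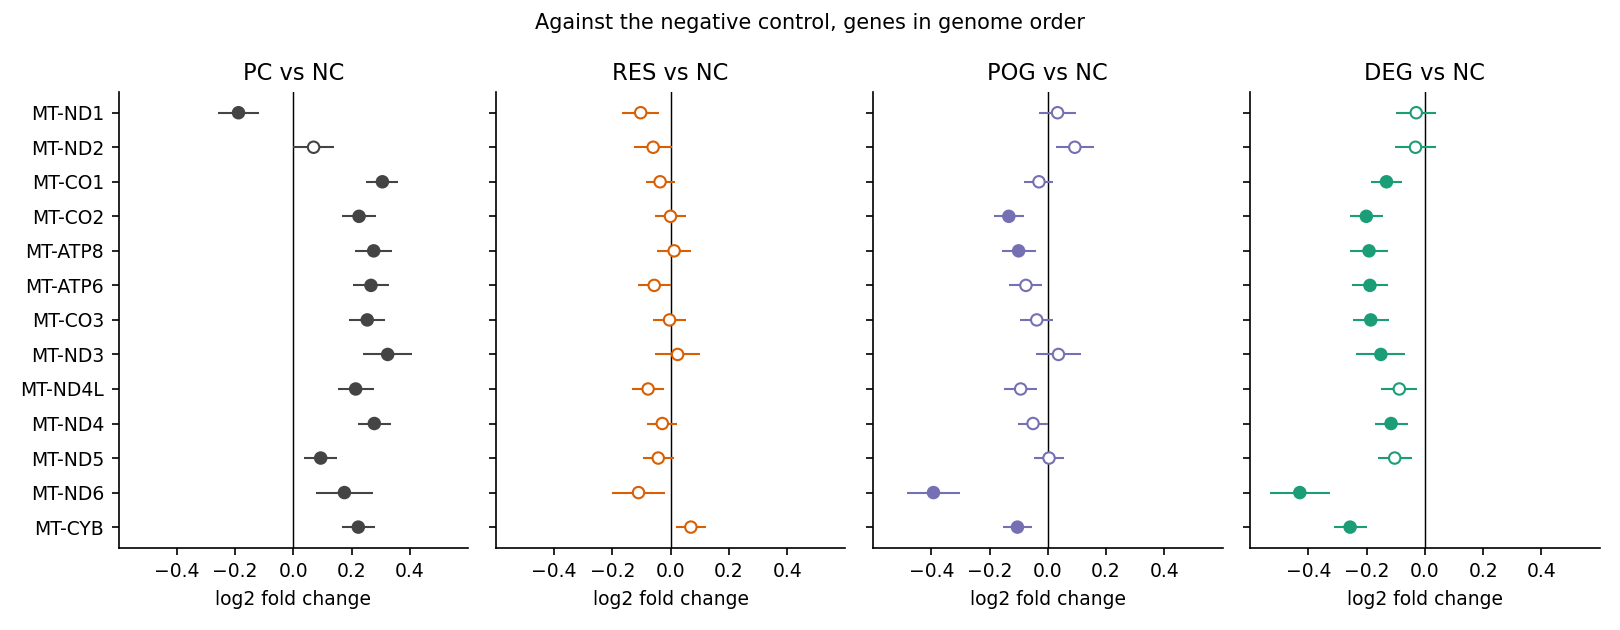
Log2 fold change of each mitochondrial mRNA against NC (horizontal axis) for PC, RES, POG and DEG, with genes in genome order and bars for the 95% interval, and filled points for genes with an FDR under 0.05. With serum 11 genes are filled to the right and MT-ND1 to the left, RES has no filled point, POG has 4 and DEG has 9, all to the left, with MT-ND6 farthest from 0 in both.

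Ratios between members do not depend on the library total. Reads per base of MT-ND1 were 32.18% and 32.11% of those of MT-CO1 in the PC libraries. In the serum-free libraries the ratio was 46.77% and 43.73% for NC, 43.66%, 42.68% and 43.36% for RES, 47.42%, 46.81% and 47.71% for POG, and 48.93% and 48.23% for DEG. Thus the PC libraries stood apart from all 10 others. Within the serum-free groups the RES libraries were lowest, but RES replicate 1, at 43.66%, lay close to NC replicate 2, at 43.73%. That gap was far smaller than the one between the NC libraries. MT-ND1 supplied 4.96% ± 0.0163 (SD, n = 2) of the reads on the 13 genes in PC and 6.60% ± 0.206 (n = 2) in NC. MT-ND2, which lies next downstream of MT-ND1 among the protein-coding genes, stood at 68.33% and 66.9% of MT-ND1 per base in PC and at 56.07% to 59.96% in the serum-free libraries.

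**Figure D4:**
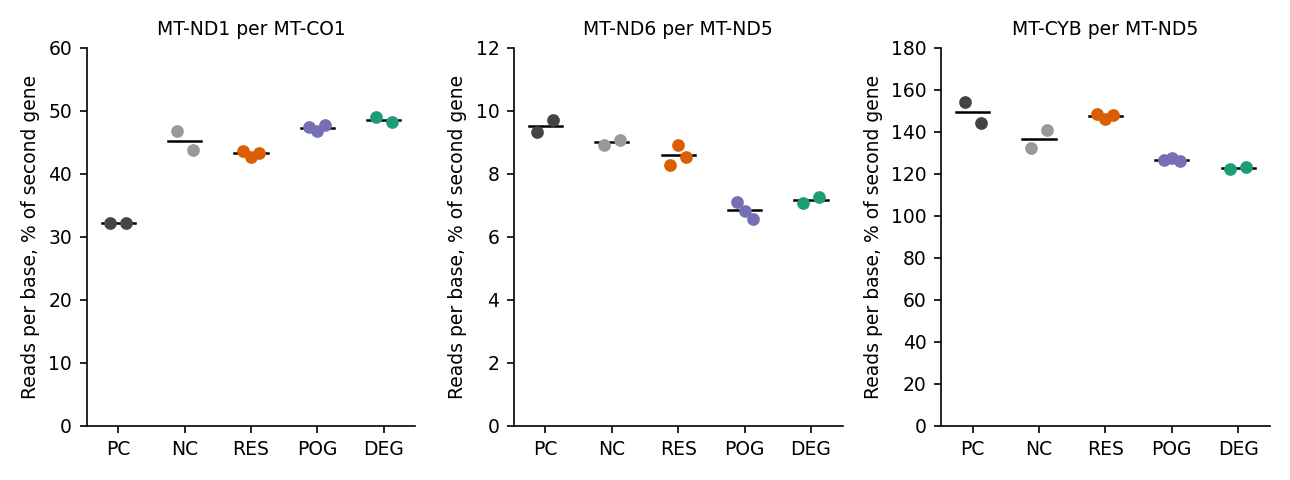
Reads per base of MT-ND1 as a percent of MT-CO1, of MT-ND6 as a percent of MT-ND5, and of MT-CYB as a percent of MT-ND5 (vertical axes) in each library, with a point for each library and a line at each group mean. The PC libraries are low in the first panel (32.18% and 32.11%), the POG and DEG libraries are low in the second (6.56% to 7.27%), and the POG and DEG libraries are lowest in the third (122.4% to 127.5%).

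The comparisons of RES, POG and DEG with NC asked how each agent changes cells kept without serum, and all share the same 2 NC libraries. For RES, none of the 13 genes was called by the edgeR exact test, although 4 had an unadjusted p under 0.05. Over all genes tested, 11.2% were called. The DESeq2 test also called 0, whereas edgeR's quasi-likelihood test called MT-ND1 (FDR 0.0372), plain library totals called MT-CYB (FDR 0.0412) and dispersions from these 5 libraries alone called 4.

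The RES values nearest to a call were those of MT-ND1, MT-ND6, MT-ND4L and MT-CYB. MT-ND1 had 2093, 2098 and 2002 CPM in RES against 2315 and 2119 in NC, a log2 fold change of −0.10 with a 95% interval of −0.165 to −0.04 (FDR 0.0724). MT-ND6 stood at −0.11 (FDR 0.128) and MT-ND4L at −0.08 (FDR 0.144). MT-CYB, with 2274, 2272 and 2197 CPM against 2168 and 2116, stood at 0.07 (95% interval 0.018 to 0.121, FDR 0.201). The libraries did not overlap for MT-ND1, MT-ND4L and MT-CYB, or 3 of 13 genes, beside 40.9% of all genes tested. For MT-CO2 and MT-CO3 the estimates lay within 0.01 of 0.

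In POG, 4 of the 13 genes fell against NC and none rose. Over all genes tested 14.5% were called and 8.57% were called lower. MT-ND6 had by far the largest difference, with 51.32, 49.08 and 48.09 CPM in POG against 67.23 and 62.7 in NC. Its log2 fold change was −0.39 ± 0.0465 (FDR 7.96e-14), and it was the single gene of the 4 that was called in every alternative. MT-CO2 had 3609, 3579 and 3663 CPM against 3983 and 3954, a log2 fold change of −0.13 ± 0.0267 (FDR 0.00269).

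MT-ATP8 and MT-CYB were called at −0.10 each (FDR 0.0301 and 0.022). Each of these calls, unlike that of MT-ND6, rested on the libraries used. MT-ATP8 was lost without NC replicate 1 (−0.05, FDR 0.585) and without any 1 POG replicate (FDR 0.0537 to 0.146), and MT-CYB without any 1 of the 5 libraries (FDR 0.058 to 0.281). MT-CO2 was lost without NC replicate 1 (FDR 0.0746) or NC replicate 2 (FDR 0.0531). With plain library totals 3 genes were called, 1 higher (MT-ND2, 0.12, FDR 0.0257) and 2 lower. MT-ND4L missed the threshold at −0.09 (FDR 0.0507), and MT-ND2, at 0.09 (FDR 0.105), had the highest estimate.

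In DEG, 9 of the 13 genes fell against NC, none rose, and all 13 estimates were below 0. Over all genes tested 9.63% were called and 6.11% were called lower. With a filter at a mean of at least 1 CPM, 12.8% of genes were called. Here and in the other comparisons, most members come from shared precursors, so their calls are not independent. The part of their high read counts in the number of calls was not tested. The median log2 fold change of the 13 was −0.151, beside 0.0008 over all genes tested. The libraries did not overlap for 11 of the 13 genes, as for 51.8% of all genes tested.

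Of these, MT-ND6, MT-CYB, MT-CO2 and MT-ATP8 were called in every alternative. MT-ND6 had 48.23 and 48.24 CPM in DEG against 67.23 and 62.7 in NC, a log2 fold change of −0.43 ± 0.052 (FDR 3.95e-13). MT-CYB had 1811 and 1774 CPM against 2168 and 2116, a log2 fold change of −0.26 ± 0.0288 (FDR 1.25e-09). MT-CO2 had 3473 and 3430 CPM against 3983 and 3954, a log2 fold change of −0.20 (FDR 1.57e-05). MT-ATP8 fell by 0.19 on the log2 scale (FDR 2.32e-05), from 376.9 and 352.5 CPM in NC to 315.2 and 323.4 CPM. These genes belong to complexes I, III, IV and V, 1 from each.

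The other 5 falls were MT-ATP6 at −0.19, MT-CO3 at −0.19, MT-ND3 at −0.15, MT-CO1 at −0.13 and MT-ND4 at −0.12. Without NC replicate 1, which had the higher mitochondrial share of the NC pair, all 5 lost their call, with FDR values of 0.0531, 0.0633, 0.27, 0.191 and 0.523 in that order, and the estimate for MT-ND4 was then −0.07. MT-CO1 and MT-ND3 were also lost without any other single library (FDR 0.0622 to 0.276), and MT-ND4 without DEG replicate 1 (FDR 0.122) or DEG replicate 2 (FDR 0.35). MT-ND1 (−0.03, FDR 0.784), MT-ND2 (−0.03, FDR 0.76), MT-ND4L (−0.09, FDR 0.143) and MT-ND5 (−0.10, FDR 0.0674) were not called.

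The ratio of MT-ND6 to MT-ND5, its neighbour on the opposite strand, gave the same order of groups as the level of MT-ND6 except for POG and DEG. Per base, MT-ND6 reads were 9.33% and 9.71% of those of MT-ND5 in PC and 8.93% and 9.07% in NC. They were 8.29%, 8.91% and 8.54% in RES. They were 7.12%, 6.83% and 6.56% in POG and 7.09% and 7.27% in DEG, so that all 5 libraries of POG and DEG lay below all 7 others. In counts, MT-ND6 rested on 1867 to 3574 reads in a library. Whether the groups differed in how well poly(A) selection recovered MT-ND6 was not tested.

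The compounds were also compared with each other directly, at the same dose of 1 mcg/ml and without the NC libraries. In POG against RES, 2 of the 13 genes were higher and 4 lower. Over all genes tested 27.9% were called, 13.7% higher and 14.1% lower. All 6 calls held in every alternative.

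MT-ND1, with 2283, 2222 and 2302 CPM in POG against 2093, 2098 and 2002 in RES, was higher by 0.14 ± 0.0286 on the log2 scale (FDR 0.00093). MT-ND2, with 1448, 1452 and 1473 CPM against 1321, 1342 and 1272, was higher by 0.15 (FDR 0.000169). These are the 2 protein-coding genes nearest to the start of the plus-strand map. MT-ND6 was lower by 0.28 (log2 fold change −0.28 ± 0.0416, FDR 2.25e-09), with 58.43, 63.77 and 58.33 CPM in RES. MT-CYB had a log2 fold change of −0.17 (FDR 3.04e-07), MT-CO2 of −0.13 (FDR 0.000283) and MT-ATP8 of −0.11 (FDR 0.00182). The 7 uncalled genes had estimates between −0.03 and 0.05, and for MT-CO1 the 95% interval of the difference ran from −0.039 to 0.05.

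In DEG against RES, 8 of the 13 genes were lower and none higher. Over all genes tested 21.2% were called, 10.8% lower. MT-CYB had the most distinct difference of any member between compounds, with 1811 and 1774 CPM in DEG against 2274, 2272 and 2197 in RES, a log2 fold change of −0.33 ± 0.0265 (FDR 9.26e-19). MT-ND6 stood at −0.32 (FDR 5.76e-09), MT-ATP8 and MT-CO2 at −0.20 (FDR 1.57e-07 and 7.23e-07) and MT-CO3 at −0.18 (FDR 2.27e-05), and these 5 were called in every alternative. MT-ND3 (−0.18, FDR 0.000822), MT-ATP6 (−0.13, FDR 0.00328) and MT-CO1 (−0.10, FDR 0.0372) were lost without DEG replicate 2 (FDR 0.0671, 0.144 and 0.337), and MT-CO1 also without DEG replicate 1, RES replicate 1 or RES replicate 2 (FDR 0.103 to 0.203).

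**Figure D5:**
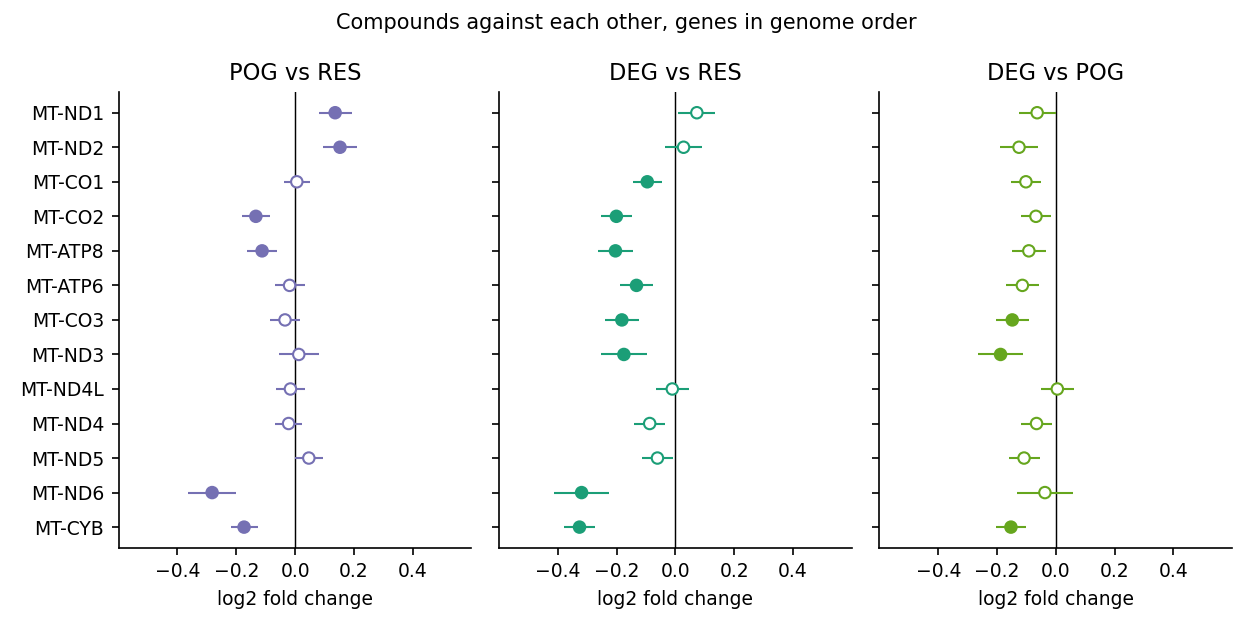
Log2 fold change of each mitochondrial mRNA between compounds (horizontal axis) for POG against RES, DEG against RES and DEG against POG, with genes in genome order, bars for the 95% interval and filled points for an FDR under 0.05. MT-ND6 (−0.28 and −0.32) and MT-CYB (−0.17 and −0.33) lie farthest to the left against RES, MT-ND1 and MT-ND2 lie to the right in POG against RES, and 3 genes are filled in DEG against POG.

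In DEG against POG, 3 of the 13 genes were lower and none higher, while 1.05% of all genes tested were called and 0.497% were called lower. MT-ND3, with 336.7 and 326.5 CPM in DEG against 381, 368.1 and 384.1 in POG, stood at −0.19 ± 0.0394 (FDR 0.00583). MT-CYB, with 1811 and 1774 CPM against 1979, 1992 and 2007, stood at −0.15 ± 0.0263 (FDR 0.00357). MT-CO3, with 2513 and 2427 CPM against 2743, 2704 and 2764, stood at −0.15 ± 0.029 (FDR 0.0143). All 3 calls were lost without DEG replicate 2 (FDR 0.316, 0.255 and 0.45) and without DEG replicate 1 (FDR 0.0892, 0.0875 and 0.102), and MT-ND3 and MT-CO3 also without POG replicate 1 (FDR 0.0565 and 0.084) or POG replicate 3 (FDR 0.069 and 0.111).

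MT-ND6, which fell in both POG and DEG against NC, showed no called difference between them (log2 fold change −0.04, 95% interval −0.131 to 0.057, FDR 0.886). The same held for MT-ND4L (0.01, 95% interval −0.051 to 0.061). For MT-CYB the 3 comparisons among compounds ordered the groups, with RES above POG and POG above DEG. As given above, the call of POG above DEG was lost when either DEG library was left out.

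The nuclear genes that maintain and express the mitochondrial genome were read from 6 lists of 84 genes in all, each of which was tested. With serum, 45 of the 84 (53.6%) were called against NC, 39 higher and 6 lower, beside 42.4% of all genes. In RES 4 (4.76%), in POG 8 (9.52%) and in DEG 3 (3.57%) were called against NC, in each case a smaller share than over all genes tested. The 2 lists with no fall in PC were the 15 genes of messenger stability, polyadenylation and decay, of which 9 rose with a median log2 fold change of 0.229, and the 17 aminoacyl-tRNA synthetases, of which 10 rose with a median of 0.257. SLIRP, which forms a complex that stabilises mitochondrial messengers, rose by 0.58 on the log2 scale (FDR 1.82e-12), and REXO2, an exonuclease that degrades short RNA, rose by 0.53 (FDR 2.01e-28).

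In the other lists, called genes went both ways with serum. In the transcription list, 3 of 8 genes were called. POLRMT, the polymerase, rose by 0.22 (FDR 2.68e-06) and TFB2M, its initiation factor, by 0.33 (FDR 0.00123), whereas TFB1M, which methylates the small ribosomal RNA, fell by 0.60 (log2 fold change −0.60 ± 0.0679, FDR 1.66e-16). Of the 15 genes of DNA replication and packaging 5 rose and 3 fell, among them the helicase TWNK at 0.32 and the exonuclease MGME1 at −0.17. Of the 16 genes of RNA processing and modification 7 rose and 1 fell, with TRMT10C, a subunit of the mitochondrial RNase P that cuts out transfer RNAs, at 0.41 and NSUN4, a ribosomal RNA methyltransferase, at −0.29. Of the 13 translation factors 6 rose and 1 fell, with the elongation factor TUFM at 0.37.

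Among the serum-free groups, POLRMT was the listed gene with the clearest RES value. It stood at 82.3 ± 0.796 CPM (SD, n = 3) in RES and at 93.9 ± 3.21 CPM (n = 2) in NC, a log2 fold change of −0.19 ± 0.0379 (FDR 0.000113). It was higher than RES by 0.25 in POG (FDR 2.56e-10) and by 0.28 in DEG (FDR 4.13e-10). TFB1M (−0.18, FDR 0.0392) and TRMU, which modifies transfer RNAs (−0.17, FDR 0.00401), fell in RES against NC, and the synthetase CARS2 rose (0.14, FDR 0.0379).

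In POG against NC, RRM2B, a subunit of ribonucleotide reductase, rose by 0.21 (FDR 0.000186) and the DNA ligase LIG3 by 0.21 (FDR 0.00225), while the ribosomal RNA methyltransferase MRM3 fell (−0.26, FDR 0.00192). In DEG against NC the 3 calls were LIG3 at 0.24, the thymidine phosphorylase TYMP at −0.27 and PNPT1, a polynucleotide phosphorylase that takes part in RNA decay in mitochondria, at −0.16 (FDR 0.0207). PNPT1 was also lower than in RES by a log2 difference of −0.17 in POG and −0.23 in DEG. Between compounds 23 of the 84 genes (27.4%) were called in POG against RES, 10 (11.9%) in DEG against RES and none in DEG against POG, beside 27.9%, 21.2% and 1.05% of all genes tested, so that the listed genes were called about as often as all genes in POG against RES and in a smaller share in DEG against RES.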

How the data were processed

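The authors deposited raw read counts per Ensembl gene. Per the labels and the study's methods, poly(A) RNA was made into libraries with the Universal Plus mRNA kit, sequenced as paired reads on a NovaSeq, checked with FastQC, aligned to hg38 with STAR and BWA MEM, and counted with featureCounts. Versions, annotation, strand setting and treatment of multiply matching reads are not given in the sources used here. All 12 count columns were matched to labelled libraries. Another DEG library was not analysed here, so DEG has n = 2.

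The count table held 43836 genes, of which 43214 were given a symbol. The filter filterByExpr by group left 17092 genes with 99.967% of reads. Following the study's methods, the edgeR exact test (edgeR 4.0.16, R 4.3.3, limma 3.58.1) was applied to the counts with TMM scaling, tagwise dispersions from all 12 libraries (common biological coefficient of variation 3.21%) and Benjamini-Hochberg adjustment over all tested genes, and a gene was called at an FDR under 0.05. Standard errors came from the quasi-likelihood fit, and 95% intervals are 1.96 standard errors on either side. CPM are scaled by TMM, and CPM per kilobase use gene lengths from GENCODE release 44. Sequences were read from hg38. Precision is limited by 2 or 3 libraries a group rather than by depth.

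All 13 mitochondrial genes are named. From each nuclear list at most 2 rises and 2 falls of largest size were named per comparison, provided that the gene was called, averaged 1 CPM or more in some group and had libraries that did not overlap, and 1 gene that the rule names is not reported here. The members and lists were chosen with earlier results of these data known. The scripts were tested on simulated data. The design had planned for ribosomal and transfer RNA genes too. Alternatives were DESeq2 1.42.0, the quasi-likelihood test, other scalings, filters and dispersions, an FDR under 0.01 and leaving out each library. Adding the nuclear copies to their parent gene was chosen after seeing the data.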

Additional observations from a re-analysis of the deposited data

Results flagged for a closer look

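The effects of some agents against the negative control differed from each other in a direct test of the difference, with 1 of the 2 agents called against the negative control and the other not, and the agents compared share those control libraries. The values are log2 differences from the edgeR exact test between the agents. Between POG and RES, the difference was −0.28 for MT-ND6, −0.17 for MT-CYB, −0.13 for MT-CO2 and −0.11 for MT-ATP8, each lower in POG. Between DEG and RES, it was −0.33 for MT-CYB, −0.32 for MT-ND6, −0.20 for MT-CO2, −0.20 for MT-ATP8, −0.18 for MT-CO3, −0.18 for MT-ND3, −0.13 for MT-ATP6 and −0.10 for MT-CO1, each lower in DEG. Between DEG and POG, it was −0.19 for MT-ND3 and −0.15 for MT-CO3, each lower in DEG. As given above, both of these calls were lost when certain single libraries were left out. The same held for MT-ND3, MT-ATP6 and MT-CO1 in DEG against RES.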

How the results depend on the processing

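Of the 42 called pairs of a member and a comparison, 26 were called in every alternative other than an FDR under 0.01, and none changed sign. Of 615 alternative values of these pairs, 555 kept the call and 60 lost it. No paired analysis was possible because the labels give no replicate numbers, and the numbers used here follow accession order only. Adding the nuclear copies, DESeq2 size factors and scaling without the mitochondrial genes left the counts of called members within 1.5 times in all 7 comparisons. With plain library totals the median log2 fold change of all genes in PC against NC was −0.0487, beside −0.0058 as reported. Counting only the 13 messengers is the same as the reported share, since only they have rows. The causes of the changes below were not tested.

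The number of called members (0 as reported) was 4 for RES against NC with dispersions from the 2 groups, and 1 with plain library totals or the quasi-likelihood test. For POG against NC (4) it was 8 with dispersions from the 2 groups and 2 at an FDR under 0.01 or with no filter. For DEG against POG (3) it was 5 with DESeq2 and 11 with dispersions from the 2 groups. Leaving out each library gave 0 to 1 for RES, 1 to 2 for POG and 4 to 8 for DEG against NC, 5 to 8 for DEG against RES and 0 to 3 for DEG against POG. A group left with 1 library was assumed to vary like the others.

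Called nuclear factors numbered, for RES against NC (4), 9 with dispersions from the 2 groups and 2 at an FDR under 0.01, with no filter or with the quasi-likelihood test. For POG against NC (8) they were 4 with DESeq2 or an FDR under 0.01, 13 with dispersions from the 2 groups and 5 with no filter. For DEG against NC (3) they were 7 with dispersions from the 2 groups and 5 with plain totals. An FDR under 0.01 left 14 for POG against RES (23) and 6 for DEG against RES (10). DEG against POG (0) had 3 with dispersions from the 2 groups and 1 with a mean of at least 1 CPM. Leaving out each library gave 0 to 4 for RES, 2 to 6 for POG and 0 to 2 for DEG against NC, 15 to 18 for POG against RES and 5 to 10 for DEG against RES.

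The mitochondrial share over reads on nuclear genes was 3.45% in NC, 3.45% in RES, 3.40% in POG and 3.17% in DEG, and over TMM-scaled totals 3.26% in POG. Leaving out each library gave exact permutation p-values of 0.00913 to 0.169 over the serum-free groups.

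Sign changes were seen in uncalled values near 0. MT-CO2 in RES against NC was 0.0056 with a mean of at least 1 CPM, 0.0039 with no filter, 0.0001 with copies added and 0.0271 with plain totals. MT-CO3 in RES against NC was 0.0022, 0.0006 and 0.0237 with the same settings other than copies, and MT-ND4L in DEG against POG was −0.0001 with plain totals. Leaving out each library gave, in RES against NC, −0.0322 to 0.0606 for MT-ATP8, −0.0106 to 0.0168 for MT-CO2, −0.0389 to 0.0351 for MT-CO3, −0.0683 to 0.0149 for MT-ND4 and −0.0999 to 0.0201 for MT-ND5. It gave −0.003 to 0.151 for MT-ND2 in PC against NC. In POG against NC it gave −0.0736 to 0.0014 for MT-CO3, −0.0263 to 0.0989 for MT-ND1 and −0.0536 to 0.0675 for MT-ND5, and in DEG against NC −0.089 to 0.035 for MT-ND1 and −0.0783 to 0.0182 for MT-ND2. In POG against RES it gave −0.018 to 0.0269 for MT-CO1, −0.0227 to 0.0312 for MT-ND3 and −0.0466 to 0.0102 for MT-ND4L. For MT-ND4L it gave −0.0416 to 0.0153 in DEG against RES and −0.0138 to 0.0197 in DEG against POG.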
